A study of Rattus norvegicus and Mus musculus with 61 samples.

Results

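Traumatic injury of the cortex was studied here at 1 early time, 8 h after a controlled cortical impact in mice, against sham surgery at the same time. The comparison used 5 of the 61 arrays of the series, namely 3 injury arrays and 2 sham arrays, chosen from the sample labels alone. The remaining 8 uninjured mouse arrays, 2 each of sham at 4, 24 and 72 h and 2 naive, served as a check of the sham values. Each array held RNA of cortical disks from 3 animals pooled together, hybridised to an Affymetrix MG_U74Av2 array, which carries 12488 probe sets.

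The injury group was male C57BL/6 mice under isoflurane that received an impact on the parieto-occipital cortex at 6 m/s with 1.5 mm deformation. The sham group came from the same strain and underwent surgery at the same time without the impact, and naive animals had no surgery. The tissue was a 4 mm disk of cortex under the impact site, so the contusion and the tissue around it were in the same sample. Pooling hides the spread between animals. The labels do not say whether both 8 h sham arrays, whose titles share the number 1 and differ in the letters b and c, came from separate pools, so p-values measure the spread between arrays only. They are called sham 1b and sham 1c here, and the injury arrays replicates 1, 2 and 3. The titles of all 3 injury arrays carry the letter b, as sham 1b does and sham 1c does not, and the labels do not say what the letter stands for. All changes are in bulk tissue, where fewer cells of a type and less RNA per cell cannot be told apart.

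A mechanical impact kills cells at the site, opens vessels and activates resident glia within hours. Injured astrocytes, microglia and endothelium release chemokines and interleukin-1, which call neutrophils first and monocytes later into the tissue. Cells that survive switch on immediate early genes, a class of transcription factors and feedback regulators that needs no new protein for its induction, and then genes of the acute phase, protease control and cytoprotection.

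The arrays behaved alike in overall signal. Their median deposited signals lay between 286 and 343 over all 22 mouse arrays. Correlations of log2 signal were taken over all probe sets except the controls, without a filter. They were 0.965 to 0.970 between the injury arrays, 0.965 between both sham arrays and 0.947 to 0.958 between an injury and a sham array. The labelled tissue bore its neuronal markers: Snap25, a synaptic vesicle fusion protein gene, had 16175, 18778 and 18174 signal units in the injury arrays and 20988 and 17368 in the sham arrays. Pituitary hormone genes, which marked both 4 h sham arrays, were near the level of the other arrays at 8 h, with Prl at 218, 207 and 230.1 in injury and 417 and 193 in sham.

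Of 6355 genes, 520 (8.18%) differed between injured and sham cortex at 8 h at an adjusted p below 0.05 (limma with Benjamini-Hochberg adjustment over all genes), and 312 rose (4.91%) while 208 fell (3.27%). The injury arrays did not overlap the sham arrays in 38.1% of all genes, with 17.8% higher and 20.3% lower. The rises were the larger changes: 58 rises against 10 falls were at least 4-fold, and 18 rises against 1 fall were at least 8-fold. The median log2 difference over all genes was -0.025. In 212 of the 312 rises (67.9%) and 111 of the 208 falls (53.4%), every injury array lay beyond all 10 uninjured arrays. Over all genes this held for 9.69%, both directions together. The 10 include the 2 sham arrays used for the calls, which no called gene overlapped, so part of this contrast was fixed by the calling. A call is described as kept where the gene passed the threshold in the same direction under all 15 alternative settings of the fit, 5 of which leave out 1 of the 5 arrays; an adjusted p given "without" an array comes from such a fit. The number of calls rested on sham 1b in particular: 194 genes (147 rose, 47 fell) were called without it, 380 without sham 1c and 191 (139 rose, 52 fell) with both sham arrays averaged to 1. Replicate 2 was the lowest injury array in 104 of the 208 falls, where replicate 1 was lowest in 69 and replicate 3 in 35, and without replicate 2 the count of falls was 123. Over all genes, replicates 1, 2 and 3 were the lowest injury array in 36.9%, 35.6% and 27.5%. The ratio of the 3′ to the 5′ probe set of beta-actin, a measure of RNA integrity, was 2.54 in replicate 2, 1.24 and 1.44 in the other injury arrays and 1.89 and 1.12 in sham 1b and 1c, while that of Gapdh was 0.823 in replicate 2 and 0.687 to 0.814 in the other 4 arrays. The same ratio was 3.27, 5.36 and 3.96 in injury against 2.96 and 5.99 in sham for pyruvate carboxylase, and 3.56, 4.32 and 4.94 against 2.19 and 4.03 for the transferrin receptor, sham 1b being the lowest of the 5 arrays for both. The part of RNA integrity in the falls was not tested.

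**Figure D1:**
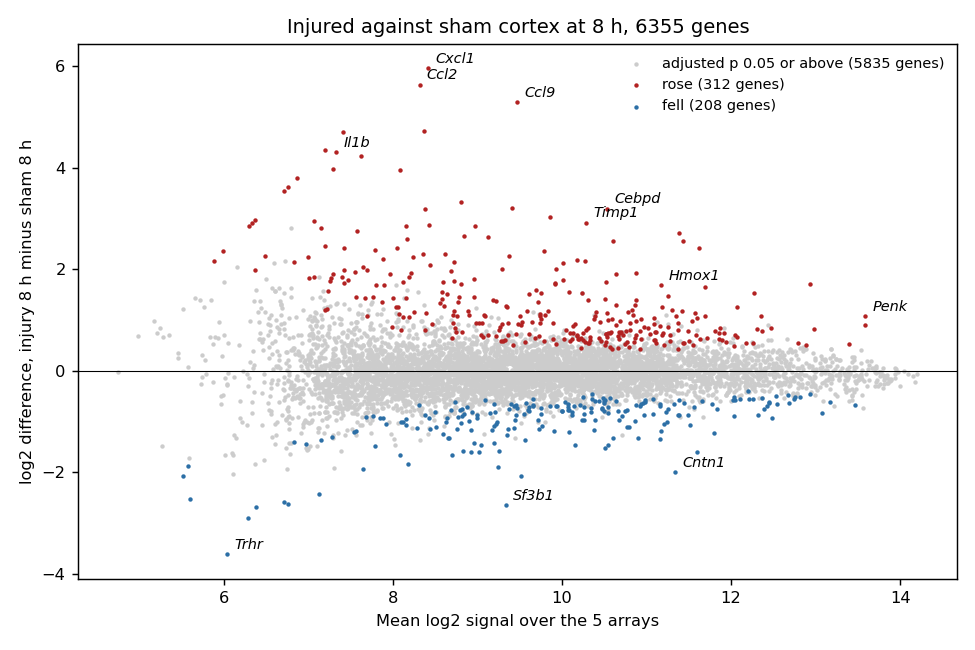
Log2 difference between the injury and sham arrays at 8 h (y axis, log2 units) against mean log2 signal over the 5 arrays (x axis), 1 point per gene for 6355 genes, red for the 312 that rose, blue for the 208 that fell and grey for the rest. The rises reach 5.96 for Cxcl1 while only Trhr falls by more than 3 log2 units.

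Chemokine genes made up 5 of the 12 largest rises. Cxcl1, whose protein draws neutrophils, read 1733, 2145 and 1529 in the 3 injury arrays and 34.1 and 19.1 in the sham arrays, a log2 difference of 5.96 ± 0.58, adjusted p = 1.53e-06. Every injury array stood above every uninjured mouse array, of which the other 8 read 21.9 to 365. The level in sham cortex was near the floor of 24.06 units, below which all signals were set to the floor before the fit. Ccl2, the main monocyte attractant, was at 1354, 2085 and 1246 after injury and 38.9 and 11.7 in sham (5.64 ± 0.38, adjusted p = 1.71e-08). The highest of the other uninjured arrays had 304 units of Ccl2, below all injury arrays.

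Ccl9, another monocyte-attracting chemokine, rose from 71 and 87.1 to 3414, 3689.9 and 2321 (5.29 ± 0.53, adjusted p = 2.19e-06). Ccl3, also named MIP-1alpha, read 1063, 1569 and 1118 in the injury arrays, 64.7 and 33.1 in sham and 89.1 to 259 in the other uninjured arrays (4.73 ± 0.34, adjusted p = 3.26e-08). Both 8 h sham arrays were below all other uninjured arrays for Ccl3, and the lowest injury array was above the highest of them. The sham arrays at 8 h differed from the other uninjured groups in 2 genes of 6355 (0.0315%), of which Ccl3 was 1, with a log2 difference of -1.79 ± 0.29 (adjusted p = 0.0209), a call not kept without sham 1c. Ccl12, a ligand of the same receptor as Ccl2, was at 418, 978 and 639 against 35.6 and 32.2 (4.24 ± 0.47, adjusted p = 8.99e-06). The calls of these 5 chemokines were kept under all 15 alternative settings tried.

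Of 29 chemokine genes listed, 24 were on the array and 14 passed the filter on low signal. Of these, 8 rose and 1 fell (64.3%, against 8.18% of all genes), with a median log2 difference of 2.63 against -0.025. Every list count below is to be set beside the same shares of all genes, 8.18% called, 4.91% risen and 3.27% fallen. Ccl7, with both sham arrays at the floor, rose by at least 3.54 log2 units (adjusted p = 5.25e-05) and kept its call in every setting. Cxcl2 (2.96 ± 0.57, adjusted p = 0.00227) was no longer called without sham 1c (adjusted p = 0.0563). Ccl4 (2.29 ± 0.64, adjusted p = 0.0306) was at adjusted p = 0.0564 without injury replicate 1, 0.113 without injury replicate 2, 0.159 without sham 1b and 0.137 without sham 1c. The fall was Cxcl12, a chemokine made in resting cortex, at 249.6, 402 and 377 against 627 and 747 (-1.03 ± 0.21, adjusted p = 0.00423), and its 2 other probe sets were lower too (-0.77 and -2.14). The call of Cxcl12 ended at adjusted p = 0.0605 without sham 1c. Ccl22, Cxcl14 and the neuronal chemokine Cx3cl1 had log2 differences of 0.19, 0.23 and 0.05, with adjusted p at or above 0.05. The 10 others on the array, among them Cxcl10 and Ccl5, did not pass the filter.

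**Figure D2:**
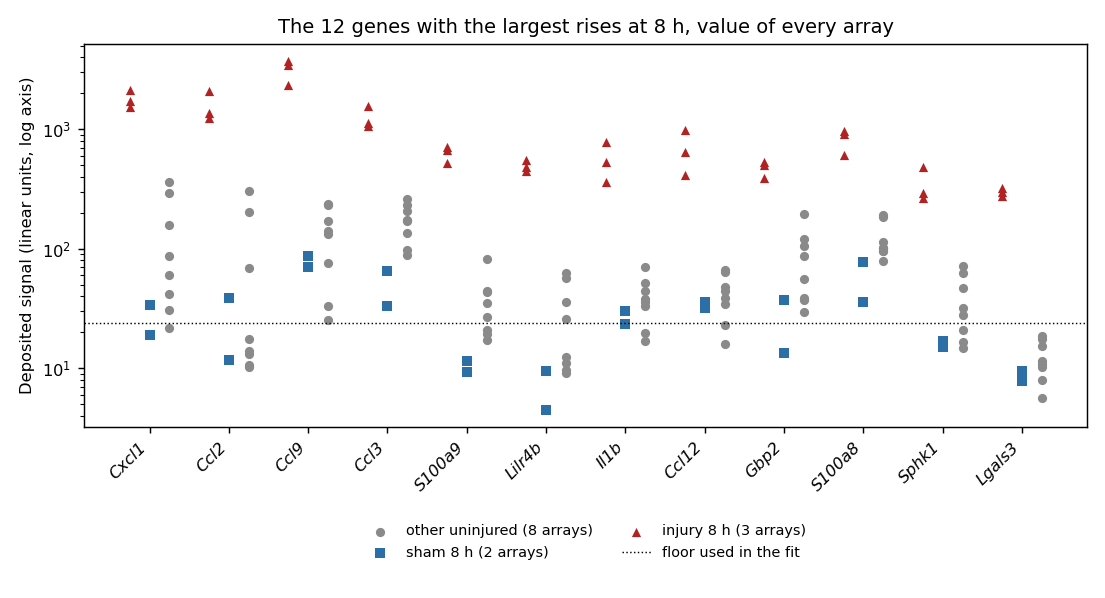
Deposited signal (y axis, linear units on a log axis) of the 12 genes with the largest rises, in the 3 injury arrays (red triangles), the 2 sham arrays at 8 h (blue squares) and the 8 other uninjured arrays (grey circles); the dotted line is the floor of 24.06 used in the fit. Every injury array is above every uninjured array in each of the 12 genes.

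Interleukin-1 genes led the cytokines. Il1b, the inflammatory form released by activated microglia and macrophages, read 536, 777 and 361 in injury and 23.3 and 29.9 in sham (4.31 ± 0.52, adjusted p = 2.15e-05), with the other uninjured arrays at 16.9 to 70.7. Its natural antagonist Il1rn rose as well, from 172 and 104 to 518, 625 and 408 (1.93 ± 0.40, adjusted p = 0.004), a call that ended without sham 1c (adjusted p = 0.0722). Il1a (1.69 ± 0.50, adjusted p = 0.0432) and the granulocyte growth factor gene Csf3 (0.93 ± 0.25, adjusted p = 0.0234) completed the 4 of 10 tested cytokines that rose. Il1a was at adjusted p = 0.187 without injury replicate 2, 0.0671 without injury replicate 3, 0.0793 without sham 1b and 0.283 without sham 1c. Csf3 was at adjusted p = 0.102 without injury replicate 2 and 0.316 without sham 1b. Il6, Tnf and 11 more of the 23 cytokine genes on the array did not pass the filter, so their changes at 8 h are not given here.

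Among receptors, Osmr, the oncostatin M receptor, rose from 139.7 and 236 to 780.3, 732 and 637 (1.97 ± 0.25, adjusted p = 4.72e-05), and Tnfrsf1a, the main tumour necrosis factor receptor, from 221 and 337 to 642, 828 and 783 (1.45 ± 0.25, adjusted p = 0.000755). Both kept their calls under all settings. The interleukin-4 receptor gene Il4ra (2.37 ± 0.49, adjusted p = 0.00423), the interleukin-1 receptor gene Il1r1 (1.46 ± 0.37, adjusted p = 0.019) and the chemokine receptor gene Ccr1 (at least 2.86, adjusted p = 0.0422, both sham arrays at the floor) made 5 rises among 20 tested, whose median was 0.07. A second probe set of Il4ra read -0.29 with adjusted p = 0.676. With single arrays left out, Il4ra had adjusted p = 0.197 without sham 1b, and Il1r1 had adjusted p = 0.0538 without injury replicate 1, 0.0727 without injury replicate 3 and 0.235 without sham 1c. Ccr1 kept its call under 6 of 15 alternatives, with adjusted p up to 0.217. Csf1r, Il6st and the fractalkine receptor gene Cx3cr1 had differences of -0.35, 0.28 and 0.04, with adjusted p at or above 0.05.

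Genes of feedback inhibitors rose too. Socs3, an inhibitor of cytokine signalling, rose from 166 and 138 to 793, 716 and 727 (2.30 ± 0.31, adjusted p = 8.35e-05), and its second probe set, dimmer in sham at 23 and 41.7 units, read 1042, 771 and 682 after injury, a difference of 4.69. Stat3, the transcription factor that Socs3 restrains, rose by 0.86 ± 0.16 (adjusted p = 0.00186). No other of the 16 genes tested in the Janus kinase and STAT list was called, and Jak2 and Socs1 were at 0.28 and 0.47. Nfkbia, the inhibitor that NF-kB induces against itself, went from 873 and 996 to 2234, 2524 and 2111 (1.29 ± 0.13, adjusted p = 2.72e-06) and kept its call throughout. The subunit genes Rela (0.86 ± 0.18, adjusted p = 0.00436) and Nfkb2 (1.46 ± 0.34, adjusted p = 0.00974) and the regulators Bcl3 (2.41 ± 0.69, adjusted p = 0.0361) and Birc3 (2.25 ± 0.65, adjusted p = 0.0373) brought the NF-kB list to 5 of 17. Without sham 1b only Nfkbia of these 5 stayed called, with Rela at adjusted p = 0.0734. Nfkb2 lost its call without sham 1b or sham 1c, where its differences were 1.57 and 1.35. It was not called with all 10 or with the other 8 uninjured arrays as control either. Over the 15 alternatives its difference went down to 0.39, and 10 kept the call. Bcl3 and Birc3 also lost theirs without injury replicate 1, injury replicate 2 or sham 1c, with adjusted p up to 0.258 and 0.179 over the alternatives.

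Immediate early genes were the list with the most calls. Of 31 tested, 15 rose and none fell (48.4%, against 8.18% of all genes), with 28 higher in injury and a median of 0.80. Cebpd, a transcription factor of the acute phase response, read 3262, 3787 and 3752 after injury against 428 and 360.4 in sham (3.19 ± 0.18, adjusted p = 1.24e-09), the smallest adjusted p of all genes. Its relative Cebpb rose from 414 and 579.6 to 1877, 1454 and 1774 (1.79 ± 0.21, adjusted p = 1.87e-05). Both factors had every injury array above the other uninjured arrays, which read 309 to 866 for Cebpd and 433 to 849 for Cebpb.

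Zfp36, whose protein destabilises inflammatory mRNAs, was at 1141, 1227 and 973 in injury and 81.6 and 290.4 in sham (2.85 ± 0.35, adjusted p = 2.39e-05). Sham 1b was low for this gene, since the other uninjured arrays read 339 to 620.1. The stress factor Atf3 rose by 2.27 ± 0.28 (adjusted p = 3.3e-05) and Ier3 by 2.55 ± 0.31 (adjusted p = 2.39e-05), with a wide spread in Ier3, whose injury arrays read 5322, 2352 and 2537. Fos and Fosb, which neuronal activity induces, were higher by 2.42 and 2.56 (adjusted p = 0.000371 and 0.000737) in every setting, but their injury arrays overlapped the other uninjured arrays: Fosb was 13031, 3042 and 4450 after injury and 1022 to 6455 in those. Junb, from the same group of factors, rose from 345 and 626 to 2974, 1534 and 2085 (2.19 ± 0.32, adjusted p = 0.000188), above the other uninjured arrays. Replicate 1 was the highest injury array in Fos, Fosb, Junb and Ier3. Ier2 (1.52 ± 0.23, adjusted p = 0.00025) and Klf10 (0.99 ± 0.18, adjusted p = 0.00137) kept their calls in every setting. Fosl1 (1.80 ± 0.44, adjusted p = 0.0152), Egr2 (1.25 ± 0.30, adjusted p = 0.0125), Btg2 (0.93 ± 0.19, adjusted p = 0.00347), Sgk1 (0.99 ± 0.24, adjusted p = 0.0126) and Rgs2 (1.03 ± 0.30, adjusted p = 0.0362) rose too, each losing its call without at least 1 array: Fosl1 and Egr2 without injury replicate 1 or sham 1b, Btg2 without sham 1b and Sgk1 without sham 1c. Rgs2 kept its call under 6 of 15 alternatives, with adjusted p up to 0.241. Members with adjusted p at or above 0.05 included Jun (0.54), Nr4a1 (0.64) and Egr1 (0.35). Without sham 1b 11 of the 31 rose, and without sham 1c 13.

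Stress genes of growth arrest also rose. Cdkn1a, the p21 cell cycle inhibitor, read 1942, 1643 and 1540.3 against 334 and 327 (2.36 ± 0.22, adjusted p = 1.34e-06). All 3 Gadd45 genes, which respond to DNA damage and other stress, were up: Gadd45b by 3.03 ± 0.29, Gadd45g by 2.16 ± 0.31 and Gadd45a by 1.37 ± 0.23 (adjusted p = 1.52e-06, 0.000135 and 0.000755). The second probe set of Gadd45b gave 1.87, and on the chosen one the injury arrays overlapped the other uninjured arrays. The list held 6 rises and 1 fall among 23, with Mcl1, a survival relative of Bcl2 (0.77 ± 0.17, adjusted p = 0.00762, adjusted p = 0.0866 without sham 1c), and the p53 target Phlda3 (0.73 ± 0.21, adjusted p = 0.0409, kept under 6 of 15 alternatives) as the other rises. The fall was Apaf1 (-0.76 ± 0.23, adjusted p = 0.0439), a caspase activator, which kept its call under 4 of 15 alternatives and whose injury arrays overlapped the other uninjured arrays. Bcl2 and its relatives Bcl2l1, Bak1 and Bid had adjusted p at or above 0.05, at 0.23, 0.21, 0.18 and 0.54.

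Heat shock genes gave 5 rises and 1 fall among 26 tested (23.1%, against 8.18% of all genes). Hspa1a and Hspa1b, near-identical copies of the inducible Hsp70 gene whose probes may share signal, rose by 1.40 ± 0.30 and 1.73 ± 0.40 (adjusted p = 0.00541 and 0.00939). Their co-chaperone Bag3 rose by 1.11 ± 0.24 (adjusted p = 0.00627) and the stress factor Atf4 by 0.84 ± 0.15 (adjusted p = 0.00123), the latter in every setting, and the endoplasmic reticulum gene Herpud1 by 0.56 ± 0.13 (adjusted p = 0.00868). Hspd1, the mitochondrial chaperonin, fell from 9403 and 8498 to 6204, 6269 and 6171 (-0.52 ± 0.11, adjusted p = 0.00343), below all other uninjured arrays. This call was lost with the mean of its probe sets and with only the 5 compared arrays. Over the alternatives its difference ran from -0.60 to -0.12, with adjusted p up to 0.778. Without sham 1b the list had 2 rises and no fall, with Hspa1a at adjusted p = 0.109, Hspa1b at 0.131, Herpud1 at 0.102 and Hspd1 at 0.0793. Without sham 1c Bag3 had 0.0826. The unfolded protein genes Hspa5, Xbp1 and Ddit3 were at 0.30, 0.16 and 0.12, with adjusted p at or above 0.05.

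In the list of oxidative stress, haem and metal genes 3 of 29 were called (10.3%, against 8.18% of all genes), all upward and in every setting. Hmox1, which degrades haem, rose from 1195 and 1098 to 3835, 3785 and 3469.7 (1.69 ± 0.21, adjusted p = 2.48e-05); the other uninjured arrays read 1082 to 1800.4. Cp, the ferroxidase ceruloplasmin, went from 139 and 131 to 504, 435 and 424 (1.75 ± 0.30, adjusted p = 0.000755), and Srxn1, which repairs oxidised peroxiredoxins, from 682 and 736 to 2058, 1958 and 1598 (1.39 ± 0.25, adjusted p = 0.00143). A second probe set of Srxn1 read -0.06. The metallothionein genes Mt1 and Mt2 had 0.28 and -0.06, and the superoxide dismutase gene Sod2 -0.03; none had an adjusted p below 0.05.

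Red blood cell genes moved beside these. Hba-a1, an alpha globin gene, read 14178, 18649 and 14675 in injury and 9158 and 7799 in sham (0.89 ± 0.23, adjusted p = 0.0204), and Alas2, the erythroid haem synthesis enzyme, rose by 1.07 ± 0.29 (adjusted p = 0.0255), making 2 of 4 tested. The summed signal of the 4 was 17100 to 22600 units in the injury arrays and 10500 to 11180 in the sham arrays. Both calls ended when single arrays were left out: Hba-a1 had adjusted p = 0.0861 without injury replicate 2, 0.0797 without sham 1b and 0.141 without sham 1c. Alas2 kept its call under 6 of 15 alternatives, with adjusted p up to 0.284. Their part in the rise of Hmox1 was not tested.

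The list of glucose transport, glycolysis and hypoxia genes gave 3 rises among 29 tested (10.3%, against 8.18% of all genes). Slc2a1, the glucose transporter of the blood-brain barrier and glia, rose from 809 and 812 to 2606, 1833 and 2084 (1.41 ± 0.19, adjusted p = 7.38e-05), above all uninjured arrays. Adm, the vasodilator adrenomedullin, rose by 2.47 ± 0.39 (adjusted p = 0.000382) and hexokinase 2, Hk2, by 1.91 ± 0.41 (adjusted p = 0.00508), the last with adjusted p = 0.135 without sham 1c. The glycolytic genes Aldoa, Pgk1 and Ldha were at -0.10, -0.30 and 0.27, with adjusted p at or above 0.05, and Vegfa was uneven at 595, 201 and 368 against 104 and 292 (1.02 ± 0.55, adjusted p = 0.288).

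Reactive astrocyte markers rose in 8 of 15 tested members (53.3%, against 8.18% of all genes), with a median of 1.4. Timp1, an inhibitor of matrix metalloproteases, read 2478, 2432 and 3674 in injury, 308 and 447 in sham and 793 to 1432 in the other uninjured arrays (2.92 ± 0.25, adjusted p = 3.88e-07). As with Ccl3, both 8 h sham arrays were below all other uninjured arrays, with a log2 difference of -1.57 ± 0.21 (adjusted p = 0.00378), a call not kept without sham 1b. Serpina3n, a secreted protease inhibitor, rose from 907 and 782 to 3016, 2636 and 4160.3 (1.93 ± 0.25, adjusted p = 4.07e-05). Sphk1, which makes sphingosine 1-phosphate, read 293, 482 and 264 after injury and rose by at least 3.79 (adjusted p = 0.000113), since both sham arrays were under the floor.

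Emp1 (3.33 ± 0.46, adjusted p = 0.000113), Ptx3 (3.18 ± 0.45, adjusted p = 0.000127) and nestin, Nes (0.93 ± 0.17, adjusted p = 0.00137), rose too, all 3 in every setting. Gfap itself missed the threshold on its chosen probe set, at 2159.8, 2989 and 3793 against 1813 and 1244 (0.95 ± 0.30, adjusted p = 0.0524). A second, dimmer probe set of Gfap was called as a rise, at 0.77 ± 0.23 (adjusted p = 0.0455 over all probe sets in limma). Lcn2, a secreted iron-siderophore binding protein of reactive astrocytes and neutrophils, depended on its probe set. The one with the higher mean read 397, 374 and 385 in injury and 507 and 296 in sham, a difference of -0.01. The other read 794, 1214 and 726 in injury and 58.0 and 61.9 in sham, a difference of 3.89 ± 0.48 (adjusted p = 3.24e-05 over all probe sets in limma). The summed signal of the 15 markers was 20260 to 22430 in injury and 5713 to 6868 in sham. Cd14 and Osmr, described in other paragraphs, are in this sum and among the 8 rises. Cd14 is also on the microglia and macrophage list, so the sum is not of astrocytes alone.

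Homeostatic astrocyte markers gave 2 falls among 16 (12.5%, against 8.18% of all genes). Aqp4, the water channel of astrocyte endfeet, read 394, 192 and 922 after injury and 2113 and 1431 in sham (-2.08 ± 0.55, adjusted p = 0.0225), a fall with a wide spread. Its injury values overlapped those of the other uninjured arrays (585 to 2076), and a second probe set was at -2.37 with adjusted p = 0.0514. Glul, glutamine synthetase, was at 1601, 1501 and 1618 against 3074 and 2725 (-0.88 ± 0.26, adjusted p = 0.0401), with a second probe set at 0.06. With single arrays left out, Aqp4 had adjusted p = 0.056 without injury replicate 1, 0.109 without injury replicate 2, 0.23 without sham 1b and 0.0561 without sham 1c. Glul had adjusted p = 0.0787 without injury replicate 1, 0.107 without injury replicate 2, 0.072 without injury replicate 3, 0.278 without sham 1b and 0.102 without sham 1c. The summed signal of the 16 markers overlapped, at 57800 to 68180 in injury and 60690 to 70530 in sham.

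Myeloid genes rose in part. Cd14, a co-receptor for bacterial and damage signals, read 6977, 6555 and 3975 after injury and 958 and 768 in sham (2.72 ± 0.24, adjusted p = 5.22e-07). Lgals3, the phagocyte lectin galectin-3, was at 7.77 and 9.42 in sham and 5.67 to 18.7 in the other uninjured arrays, all below the floor, and at 277, 320.2 and 296 after injury, a rise of at least 3.63 (adjusted p = 0.000123). The lysozyme gene Lyz2 rose by 2.05 ± 0.33 (adjusted p = 0.00041), Tyrobp by 1.17 ± 0.21 (adjusted p = 0.00127) and the leukocyte surface gene Cd53 by 1.74 ± 0.35 (adjusted p = 0.00361); the call of Tyrobp ended without sham 1b (adjusted p = 0.0545) and that of Cd53 without 1c (adjusted p = 0.0954). The list gave 9 rises among 27 tested (33.3%, against 8.18% of all genes) and a median of 0.81. Its other rises were Fcgr1 (1.05), Cd52 (1.25), the myeloid transcription factor Spi1 (0.85) and Slc11a1 (1.11), whose adjusted p ran up to 0.263, 0.183, 0.337 and 0.52 over the alternatives. Cd52 and Spi1 were lost without sham 1c, and the list had 7 rises without sham 1b and 5 without sham 1c. Aif1, Csf1r and Cx3cr1, which resting microglia express, had -0.48, -0.35 and 0.04, with adjusted p at or above 0.05. Lilr4b, an inhibitory receptor of myeloid cells, was among the largest rises of all, at 449, 548 and 487 against 9.52 and 4.51, at least 4.36 (adjusted p = 2.39e-05).

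Neutrophil markers split. S100a8 and S100a9, subunits of calprotectin and abundant in neutrophils and monocytes, read 906, 964 and 613 and 716, 665 and 522 after injury. Sham arrays had 35.6 and 77.3 for S100a8 and 11.6 and 9.27 for S100a9, giving 3.95 ± 0.37, adjusted p = 1.21e-06, and at least 4.71 (adjusted p = 0.000139). Both kept their calls under all settings. The granule genes Elane and Camp were at -0.21 and -1.27, with adjusted p at or above 0.05, and Mpo, Ltf, Ngp and Ly6g were among 10 of 18 members on the array that did not pass the filter. The summed signal of the 8 tested members was 4199 to 4944 in injury and 3070 to 3456 in sham. Of the lymphocyte markers 13 of 18 did not pass the filter, Cd3d, Cd3e and Cd8a included, and 1 of 5 tested was called, Ighm (0.56 ± 0.16, adjusted p = 0.0358), which had adjusted p = 0.0742 without injury replicate 2, 0.129 without injury replicate 3, 0.217 without sham 1b and 0.116 without sham 1c.

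Interferon-induced genes rose in 6 of 15 tested (40%, against 8.18% of all genes), with a median of 0.95. Gbp2, a GTPase of cell-autonomous defence, went from 37.2 and 13.5 to 392, 531 and 506 (3.98 ± 0.35, adjusted p = 5.22e-07) and Ifitm3, which blocks viral entry, from 714 and 724 to 2179, 3126 and 2883 (1.91 ± 0.21, adjusted p = 7.58e-06). Ifit3 rose by 1.42 ± 0.30 (adjusted p = 0.00475), and Irf1, a transcription factor of the pathway, by 1.07 ± 0.24 (adjusted p = 0.00874). Ifit3 and Irf1 lost their calls without sham 1b (adjusted p = 0.0555 and 0.214). Gbp3 (0.85 ± 0.21, adjusted p = 0.0151) and Ifi204 (at least 2.35, adjusted p = 0.0115, sham at the floor) were the others. Gbp3 had adjusted p = 0.0583 without injury replicate 3, 0.0529 without sham 1b and 0.128 without sham 1c, and Ifi204 had adjusted p = 0.0834 without sham 1b and 0.058 without sham 1c. Irf7 and Irf9 were at -0.34 and 0.23, and Ifit1, Mx1 and Iigp1 were among 13 members on the array that did not pass the filter.

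Antigen presentation had 3 rises among 22 (13.6%, against 8.18% of all genes). They were the class I genes H2-K1 (0.80 ± 0.14, adjusted p = 0.00128) and H2-D1 (0.74 ± 0.17, adjusted p = 0.00872) and the immunoproteasome gene Psmb8 (1.36 ± 0.34, adjusted p = 0.0157). The class I genes are close paralogs, and 2 further H2-K1 probe sets read 1.54 and -0.16 (adjusted p = 0.0599 and 0.867 over all probe sets). H2-D1 had adjusted p = 0.106 without sham 1b, and Psmb8 had adjusted p = 0.0615 without injury replicate 1 and 0.204 without sham 1c. Class II genes H2-Ab1 and H2-Eb1 had 0.71 and 0.66, and Cd74 0.51, all with adjusted p at or above 0.05. Complement gave C1qb (0.68 ± 0.14, adjusted p = 0.00326), C1qc (0.61 ± 0.18, adjusted p = 0.0374) and the anaphylatoxin receptor gene C5ar1 (0.93 ± 0.20, adjusted p = 0.00616), 3 of 12, and none of the 3 was called with the sham arrays averaged. The call of C1qb was lost without sham 1b (difference 0.60) and with the mean of its probe sets. A second C1qb probe set was at 0.16 (adjusted p = 0.813 over all probe sets in limma). C5ar1 lost its call without sham 1c (difference 0.87), and C1qc kept its call under 6 of 15 alternatives.

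Protease control and plasminogen genes gave 6 rises among 22 (27.3%, against 8.18% of all genes). Plaur, the urokinase receptor, rose from 88.5 and 101 to 408, 512 and 401 (2.21 ± 0.36, adjusted p = 0.000459), and Anxa2, which binds plasminogen at the cell surface, from 317 and 579 to 1717, 1927 and 1965 (2.12 ± 0.26, adjusted p = 2.48e-05). The macrophage elastase Mmp12 (1.90 ± 0.46, adjusted p = 0.0141) and the sheddase Adam8 (2.85 ± 0.70, adjusted p = 0.0151) rose with them, as did S100a10, the partner of Anxa2 (0.62 ± 0.18, adjusted p = 0.0358). Mmp12 had adjusted p = 0.0586 without injury replicate 2, 0.0834 without sham 1b and 0.0898 without sham 1c. Adam8 had adjusted p = 0.0515 without injury replicate 2 and 0.194 without sham 1b, and S100a10 had adjusted p up to 0.261 over the alternatives. The plasminogen activators Plau and Plat were at -0.48 and 0.75, with adjusted p at or above 0.05. In the prostaglandin list, 4 of 17 rose (23.5%, against 8.18% of all genes), among them the inducible cyclooxygenase Ptgs2. Its injury arrays were uneven at 2104, 347 and 1204, against 180.4 and 127 in sham (2.66 ± 0.64, adjusted p = 0.0128), and it had adjusted p = 0.0624 without injury replicate 1, 0.0676 without sham 1b and 0.0998 without sham 1c. Ptges, prostaglandin E synthase, rose by 1.43 ± 0.36 (adjusted p = 0.0158), and had adjusted p = 0.0564 without injury replicate 1 and 0.22 without sham 1b. Anxa5 (0.58 ± 0.16, adjusted p = 0.0298) kept its call under 6 of 15 alternatives.

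Endothelial genes rose in 4 of 21 tested (19%, against 8.18% of all genes), with a median of 0.10. Their summed signals were 10730 to 11930 in injury and 9919 to 10370 in sham. Angpt2, a destabiliser of vessels, read 295, 364 and 310.2 against 76.8 and 90.6 (1.95 ± 0.34, adjusted p = 0.00117) and the junction gene Cdh5 840.4, 652 and 524 against 250 and 234 (1.45 ± 0.28, adjusted p = 0.00207). Both stood above all other uninjured arrays and kept their calls. Vwf (1.16 ± 0.31, adjusted p = 0.0255) and Eng (0.45 ± 0.13, adjusted p = 0.0412) were the other rises, kept under 6 and 5 of 15 alternatives, with adjusted p up to 0.298 and 0.222. Pecam1, Cldn5 and the adhesion gene Vcam1 were at 0.16, -0.01 and 0.03, with adjusted p at or above 0.05. Ptprb, the endothelial receptor phosphatase, was among the largest falls at 11.4, 15.3 and 29.5 against 110 and 108 (-2.08 ± 0.60, adjusted p = 0.0361), on signals near the floor, and kept its call under 6 of 15 alternatives, with adjusted p up to 0.385. In the adhesion list 1 of 14 was called (7.14%): Alcam fell in every setting, from 879 and 1009.9 to 359.8, 195 and 428 (-1.60 ± 0.30, adjusted p = 0.00182), below all other uninjured arrays.

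Matrix genes had 5 rises and 1 fall among 33 (18.2%, against 8.18% of all genes). The basement membrane collagen gene Col4a1 rose by 1.0 ± 0.24 (adjusted p = 0.0116) and Tgfbi by 1.85 ± 0.49 (adjusted p = 0.0225); the matricellular gene Ccn1 (1.21), the laminin gene Lamc1 (0.93) and Col4a2 (0.43) were the others. Without sham 1c no matrix gene was called as a rise, and Col4a1 had adjusted p = 0.172; without sham 1b 1 was. Tgfbi also lost its call without injury replicate 3, Lamc1 without injury replicate 2, and Ccn1 and Col4a2 whichever of the 5 arrays was left out. The small proteoglycan decorin, Dcn, fell from 1738 and 1858 to 804, 607 and 961 (-1.21 ± 0.19, adjusted p = 0.000294) in every setting, though its injury arrays overlapped the other uninjured arrays (770.3 to 1957). Dcn is also a meningeal marker, the only one of 13 choroid plexus and meningeal genes called. The summed signal of those 13 was 20740 to 23230 in injury and 24280 to 26840 in sham, and the part of meninges in the fall of Dcn was not tested.

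Growth factor and receptor genes gave 1 rise and 1 fall among 37 (5.41%, against 8.18% of all genes). Igfbp4, which binds insulin-like growth factors, rose from 453 and 492 to 1404, 1726 and 1547 (1.72 ± 0.25, adjusted p = 0.000141), while a second probe set gave 0.30. Kitl, stem cell factor, fell from 1576 and 1193 to 804, 493 and 669 (-1.09 ± 0.22, adjusted p = 0.00374), with adjusted p = 0.106 without sham 1b. Bdnf read 7498, 3426 and 4478 against 3432 and 2149 (0.84 ± 0.29, adjusted p = 0.089). In the cholesterol list Fdft1, squalene synthase, rose from 1604 and 1759 to 4592, 4000.4 and 2976 (1.18 ± 0.21, adjusted p = 0.00137) in every setting, with Idi1 (0.79), Mvd (0.93) and the lipid droplet gene Plin2 (1.70) among 4 rises of 25, of which only Fdft1 was called without sham 1b. Idi1 was also lost without injury replicate 1 or sham 1c, Mvd without injury replicate 2, and Plin2 without injury replicate 2 or 3.

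**Figure D3:**
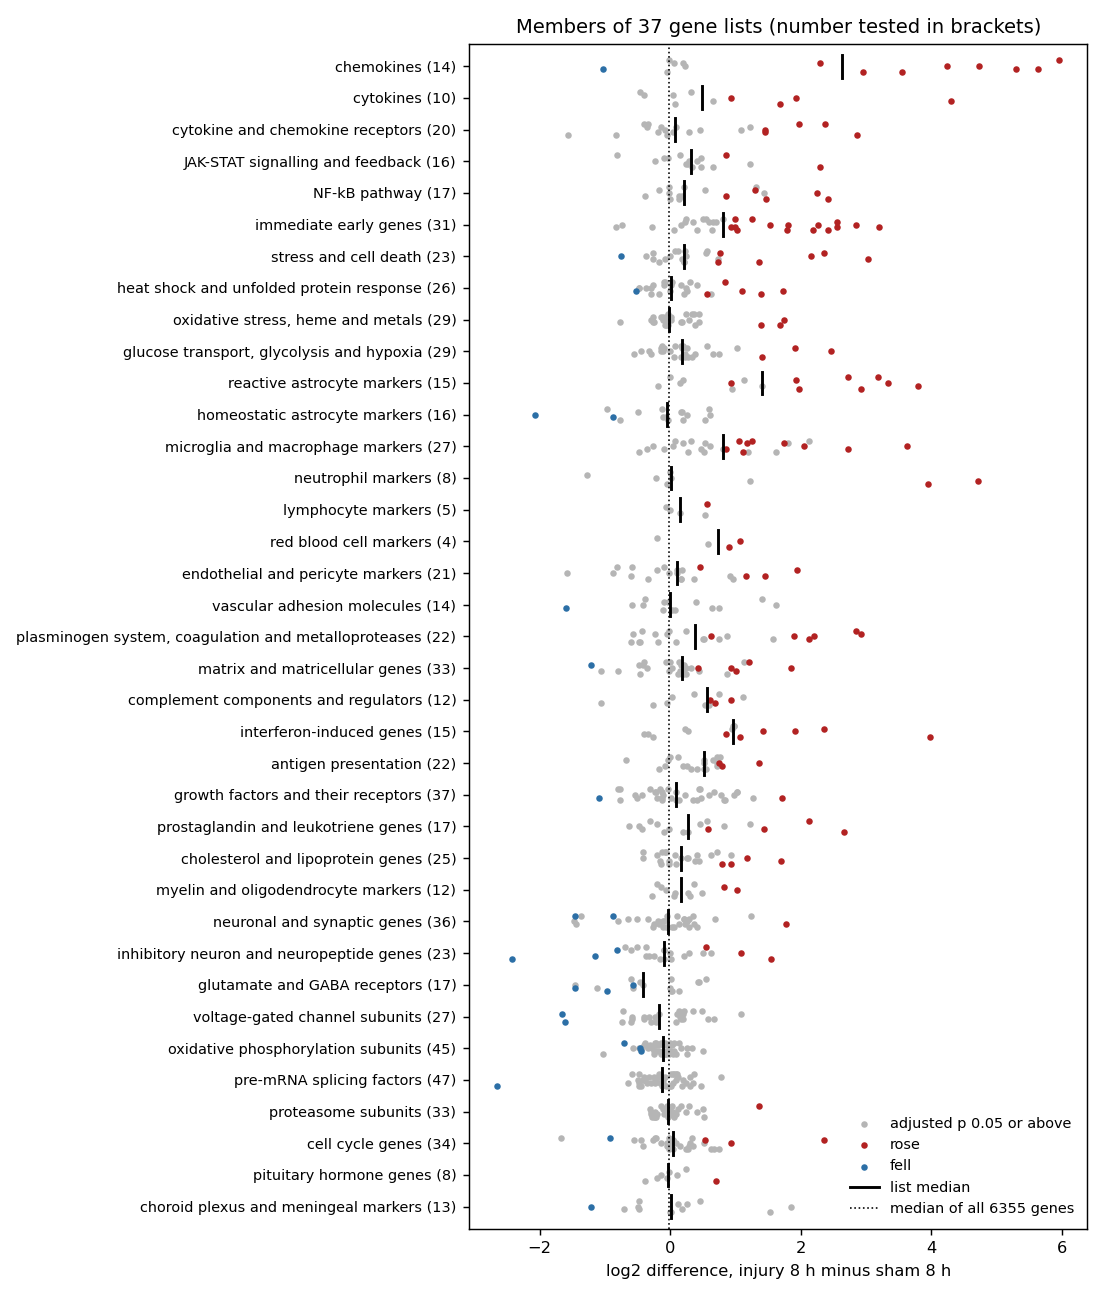
Log2 difference between injury and sham at 8 h (x axis) for the tested members of 37 gene lists (rows, number tested in brackets); each point is a gene, red for a rise, blue for a fall, grey otherwise, the black bar is the list median and the dotted line the median of all 6355 genes. Chemokines, reactive astrocyte markers and interferon-induced genes have the medians farthest to the right, at 2.63, 1.4 and 0.95.

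Of the 12 largest falls 3 kept their call under all 15 settings, against 12 of the 12 largest rises. Cntn1, an axonal adhesion molecule, was the brightest of the stable ones, at 1819, 926 and 1974 after injury against 6202 and 5716 in sham (-2.0 ± 0.23, adjusted p = 1.29e-05), below all other uninjured arrays (3446 to 6472). Atm, the DNA damage kinase, fell from 463 and 434 to 155, 117 and 87.2 (-1.94 ± 0.32, adjusted p = 0.000511). Sf3b1, a core subunit of the spliceosome, read 457, 129 and 504 against 1628 and 2326 (-2.65 ± 0.42, adjusted p = 0.000408). Its second probe set, at 669, 592 and 793 against 862 and 934, gave -0.40 with adjusted p = 0.214. No other of 47 splicing factor genes was called (2.13%), and Sf3b2 and Sf3b3 had -0.35 and -0.11.

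Trhr, the receptor for thyrotropin-releasing hormone, was below the floor in all 3 injury arrays and read 342 and 256 in sham, a fall by at least 3.62 log2 units (adjusted p = 0.00342). The other uninjured arrays ranged from 16.4 to 421, so at least 1 of them was below the floor too, and without sham 1b the adjusted p was 0.0613. Frzb, a Wnt antagonist, was at 43.4, 23.9 and 41.2 against 282 and 240 (-2.89 ± 0.70, adjusted p = 0.0135) and had adjusted p = 0.0512 without injury replicate 2, 0.136 without sham 1b and 0.0628 without sham 1c. Akap9 (-2.69 ± 0.55, adjusted p = 0.00403) and the transcription factor gene Mycn (-2.63 ± 0.53, adjusted p = 0.00343) lost their calls without sham 1b as well (adjusted p = 0.0657 and 0.0688). Fut9, a fucosyltransferase (-2.58 ± 0.56, adjusted p = 0.00561), ended at adjusted p = 0.0573 without sham 1c. Xrn1, an exoribonuclease, was below the floor in all injury arrays but read 68.7 and 283 in sham, a fall by at least 2.54 log2 units (adjusted p = 0.0255). It kept its call under 7 of 15 alternatives, with adjusted p up to 0.371.

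**Figure D4:**
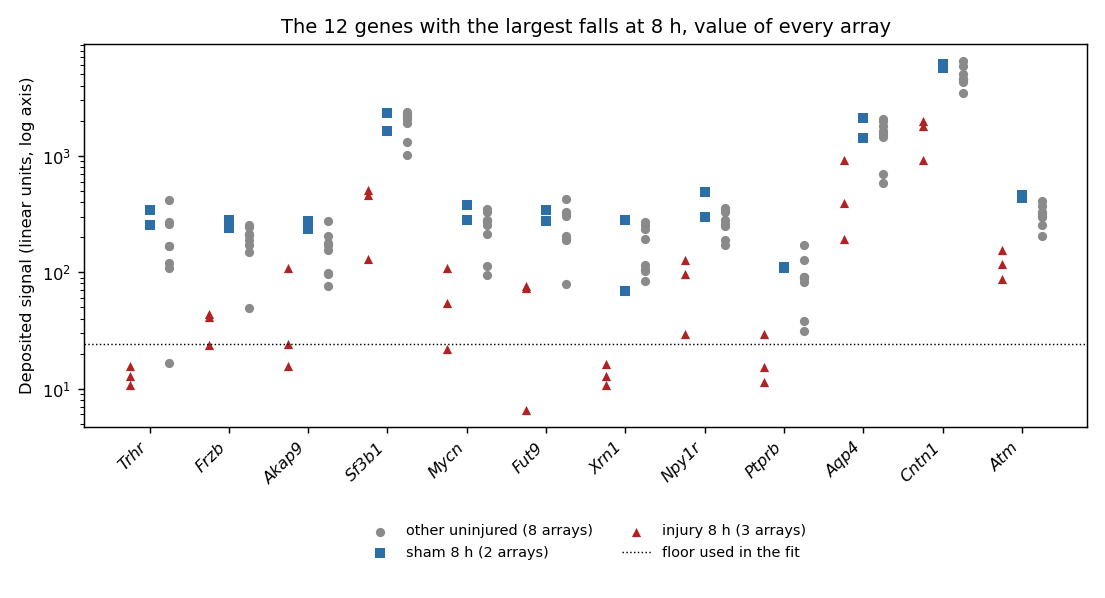
Deposited signal (y axis, linear units on a log axis) of the 12 genes with the largest falls, in the 3 injury arrays (red triangles), the 2 sham arrays at 8 h (blue squares) and the 8 other uninjured arrays (grey circles); the dotted line is the floor of 24.06 used in the fit. Cntn1 and Sf3b1 lie well above the floor, while Trhr, Xrn1 and Ptprb come down to it. Fut9 and Frzb also reach it in injury replicate 2, and Akap9 and Mycn in injury replicate 3.

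Of 36 neuronal and synaptic genes tested, 1 rose and 2 fell (8.33%, against 8.18% of all genes), with a median of -0.04, and their summed signal was 183200 to 190400 in injury and 191500 to 193300 in sham. Gap43, a growth cone protein, fell from 7469 and 7212 to 4851, 3228 and 4115 (-0.87 ± 0.17, adjusted p = 0.0026) in every setting, below all other uninjured arrays. Syt4, a vesicle protein gene, fell as well (-1.46 ± 0.36, adjusted p = 0.0152), but had adjusted p = 0.0728 without injury replicate 2 and 0.23 without sham 1b. Vamp1 rose by 1.77 ± 0.41 (adjusted p = 0.0102), but its injury arrays lay inside the range of the other uninjured ones, and it had adjusted p = 0.186 without sham 1b. Snap25, Thy1, Syp and Nrgn were at -0.11, -0.03, -0.12 and 0.21, with adjusted p at or above 0.05.

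Of 23 inhibitory neuron and neuropeptide genes tested, 3 rose and 3 fell (26.1%, against 8.18% of all genes). The rises were peptide precursor genes, and none of the falls was. Tac1, the substance P precursor, rose from 607 and 536 to 1785, 1650 and 1569 (1.55 ± 0.20, adjusted p = 5.01e-05), and Penk, the enkephalin precursor, from 8173 and 7551 to 17026, 17254 and 15520 (1.08 ± 0.16, adjusted p = 0.000187). Tac1 stood above all other uninjured arrays (462 to 779), whereas the highest of those for Penk had the value of the lowest injury array. Drd2 and Pde1b, genes strongly expressed in striatal neurons and named after their values were seen, rose too (1.81 ± 0.27 and 1.08 ± 0.18, adjusted p = 0.000235 and 0.000672), and the part of other brain regions in these changes was not tested. Npy, neuropeptide Y, rose by 0.54 ± 0.15 (adjusted p = 0.0326), kept under 7 of 15 alternatives, with adjusted p up to 0.298. The receptor genes Npy2r, from 1158 and 978 to 466, 439 and 535 (-1.15 ± 0.22, adjusted p = 0.00212), and Npy1r (-2.42 ± 0.71, adjusted p = 0.0389) fell, as did Calb1 (-0.82 ± 0.20, adjusted p = 0.0125). Npy2r had adjusted p = 0.0558 without sham 1b, and Calb1 had adjusted p = 0.126 without sham 1b and 0.0556 without sham 1c. Npy1r kept its call under 6 of 15 alternatives, with adjusted p up to 0.269. Gad1, Sst and Pvalb had 0.01, -0.10 and 0.29, with adjusted p at or above 0.05.

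Receptors for glutamate and GABA gave 3 falls and no rise among 17 (17.6%, against 8.18% of all genes), with a median of -0.42. Gria1, an AMPA receptor subunit, went from 2259 and 2660.3 to 1325, 979.9 and 1516 (-0.97 ± 0.24, adjusted p = 0.0161), below all other uninjured arrays. Gabrb1 (-0.57 ± 0.16, adjusted p = 0.0315) and the kainate receptor gene Grik1 (-1.45 ± 0.44, adjusted p = 0.0452) were the others. None of the 3 was called without sham 1b, where Gabrb1 had adjusted p = 0.36. Gria1 had adjusted p = 0.0774 without injury replicate 2, 0.0692 without sham 1b and 0.123 without sham 1c. Grik1 had adjusted p = 0.197 without injury replicate 2, 0.316 without sham 1b and 0.105 without sham 1c. Gabrb1 was lost without injury replicate 1 or 3 as well. The chosen probe set of Gria2 read 10731, 8092 and 9668 against 15440 and 12688 (-0.57 ± 0.18, adjusted p = 0.0523), while 2 dimmer ones gave -1.28 and -1.06 (adjusted p = 0.00103 and 0.00331 over all probe sets). Of 27 voltage-gated channel subunits 2 were called (7.41%): Kcnma1 fell from 6899.8 and 5313 to 2725, 1230.3 and 2335 (-1.61 ± 0.32, adjusted p = 0.00343) and the calcium channel subunit gene Cacna2d1 from 420.1 and 697 to 194, 119.7 and 219 (-1.65 ± 0.34, adjusted p = 0.00382), both below all other uninjured arrays. Without sham 1b Kcnma1 had adjusted p = 0.0788, and without 1c Cacna2d1 had 0.0798. Replicate 2 was the lowest injury array in Gria1, Grik1, Kcnma1 and Cacna2d1.

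Myelin genes gave 2 rises among 12 (16.7%, against 8.18% of all genes), Mag (1.02 ± 0.21, adjusted p = 0.00423) and Mobp (0.83 ± 0.21, adjusted p = 0.0169). Without sham 1b their differences were 0.63 and 0.87. Mag had adjusted p = 0.189 without sham 1b, with a second probe set at -0.14, and Mobp had adjusted p = 0.0785 without injury replicate 2, 0.103 without sham 1b and 0.0999 without sham 1c. Oxidative phosphorylation subunits had 3 falls among 45 (6.67%, against 8.18% of all genes) and a median of -0.11, with 32 of the 45 lower in injury, led by the ATP synthase gene Atp5g2, from 1252 and 1228 to 688, 809 and 795 (-0.70 ± 0.14, adjusted p = 0.00343). Its call was lost with the mean of its probe sets and with the sham arrays averaged (adjusted p up to 0.109), and a second, dimmer probe set was at -0.18 with adjusted p = 0.801. Sdha (-0.46 ± 0.13, adjusted p = 0.03) and Atp5c1 (-0.45 ± 0.13, adjusted p = 0.0376) lost their calls when any of several arrays was left out, with adjusted p up to 0.185 and 0.605 over the alternatives. Proteasome genes gave 1 rise among 33 (3.03%), the inducible subunit Psmb8. In the cell cycle list of 34, Cdkn1a, Ccnf (0.94) and Plk2 (0.53) rose and the inhibitor Cdkn1c (-0.93) fell. Ccnf lost its call without sham 1b, Plk2 without injury replicate 2 or either sham array, and Cdkn1c whichever of the 5 arrays was left out. Mki67 and Pcna were at 0.25 and -0.03, with adjusted p at or above 0.05. Chga (0.70 ± 0.19, adjusted p = 0.0276) was the only call among 8 pituitary hormone genes. It had adjusted p = 0.101 without injury replicate 3 and lost its call without sham 1b (difference 0.53) and with the mean of its probe sets. A second Chga probe set was at 0.06 (adjusted p = 0.932 over all probe sets in limma). The summed signal of the 8 genes was 4693 to 5430 in injury and 4120 to 4280 in sham.

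The 8 h changes were set against those at 4 and 24 h, which rest on other arrays but share the estimate of the spread. Of the 312 rises at 8 h, 35 (11.2%) were also called rises at 4 h, against 0.677% of all genes. At 24 h 189 of the 312 (60.6%) were called rises, against 6.20% of all genes. Seen from the other times, 81.4% of the 43 rises at 4 h and 48.0% of the 394 at 24 h were 8 h rises, against 4.91% of all genes. Of the 208 falls, 1 (0.481%) was also called a fall at 4 h, against 0.189% of all genes. At 24 h 83 of the 208 (39.9%) were called falls, against 4.5% of all genes. In turn, 8.33% of the 12 falls at 4 h and 29.0% of the 286 at 24 h were 8 h falls, against 3.27% of all genes. The median 4 h effect was 0.36 for the 8 h rises and -0.04 for the 8 h falls, and the median 24 h effect was 0.88 and -0.59.

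The difference between effects was then tested itself. Between 8 and 4 h 39 genes differed (0.614%), 28 with the higher and 11 with the lower effect at 8 h. An effect is injury minus sham, so both groups enter this difference. In 12 of the 16 named genes with the higher effect at 8 h the sham means differed more between the times than the injury means, and the 8 h sham mean was the lower one in all 16. A low 8 h sham mean raises this difference, so selecting genes by it favoured such means. These counts therefore describe the selected genes only. Ccl2 had an effect of 2.37 ± 0.38 at 4 h and 5.64 ± 0.38 at 8 h, a difference of 3.26 ± 0.54 (adjusted p = 0.006). Its injury arrays read 1561, 1101 and 1242 at 4 h, overlapping the 8 h values given above, while the 4 h sham arrays read 304 and 203; the injury mean was higher by 0.24 at 8 h and the sham mean lower, at -3.02. Gbp2 went from 1.13 ± 0.35 to 3.98 ± 0.35 (adjusted p = 0.00896), with the injury mean at 0.49 and the sham mean at -2.36 relative to 4 h. For Timp1, from 0.91 ± 0.25 to 2.92 ± 0.25 (adjusted p = 0.00896), these were 0.62 and -1.38, and for Cdkn1a, from 0.67 ± 0.22 to 2.36 ± 0.22 (adjusted p = 0.0147), 0.16 and -1.53. Cebpd, already up at 4 h by 1.95 ± 0.18, had an effect of 3.19 ± 0.18 at 8 h (adjusted p = 0.0277), with its injury mean at 0.17 and its sham mean at -1.08. Hmox1 went from 0.34 ± 0.21 to 1.69 ± 0.21 (adjusted p = 0.0381; injury 0.71, sham -0.64) and Stat3 from -0.23 ± 0.16 to 0.86 ± 0.16 (adjusted p = 0.0305; injury 0.56, sham -0.54).

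Genes with the lower effect at 8 h included Cntn1 (-0.31 ± 0.23 then -2.0 ± 0.23, adjusted p = 0.0178), whose injury mean was at -1.49 and sham mean at 0.20 relative to 4 h, and Acvr2a, an activin receptor gene (-0.17 ± 0.20 then -1.46 ± 0.20, adjusted p = 0.0381), at -0.58 and 0.72. Of 23 named genes whose effects differed between 8 and 4 h, 3 kept that call under all 14 settings tried, Ccl2, Prl and Cga, and 18 lost it without 8 h sham 1b. Gbp2, Timp1 and Cntn1 kept it under 12, Cdkn1a under 10, Stat3 and Cebpd under 6, Acvr2a under 5 and Hmox1 under 4. Adjusted p ran up to 0.241 for Stat3, 0.12 for Cebpd, 0.261 for Acvr2a and 0.173 for Hmox1. The count of 39 went to 8 without 8 h sham 1b and 22 without 8 h injury replicate 2. It went to 11 without 4 h sham 1c, 21 without 4 h sham 1b, and 18 and 21 without 4 h injury replicates 2 and 3.

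Between 8 and 24 h, 3 genes differed (0.0472%). Ccl3 had the larger effect at 8 h, 4.73 ± 0.34 against 1.79 ± 0.34 at 24 h (adjusted p = 0.0341). Nes had the smaller one, 0.93 ± 0.17 against 2.34 ± 0.17 (adjusted p = 0.0341). Wfdc18 was at -0.33 ± 0.29 at 8 h, where it was not called, and -2.70 ± 0.29 at 24 h (adjusted p = 0.0341). The injury mean of Ccl3 was 1.46 higher at 8 than at 24 h and its sham mean lower, at -1.48. Ccl3, Wfdc18 and Nes kept their calls under 8, 6 and 5 of 15 alternatives, with adjusted p up to 0.147, 0.243 and 0.172. At an unadjusted p below 0.05 there were 471 genes. Over the arrays left out in turn, the limma count ran from 0 to 17. It was 0 without 8 h injury replicate 1 or 2 (449 and 377 at an unadjusted p below 0.05) and without 24 h injury replicate 3 or 24 h sham 1c (451 and 408). It was 1 without 24 h injury replicate 1 or 24 h sham 1d, 2 without either 8 h sham array, 6 without 8 h injury replicate 3 and 17 without 24 h injury replicate 2. Il1b was 3.19 ± 0.52, 4.31 ± 0.52 and 1.95 ± 0.52 at 4, 8 and 24 h, and Cxcl1 2.41 ± 0.58, 5.96 ± 0.58 and 2.95 ± 0.58. For neither gene did the 8 h effect differ from the others at the threshold (adjusted p = 0.571 and 0.39 for Il1b, 0.052 and 0.308 for Cxcl1, against 4 and 24 h).

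**Figure D5:**
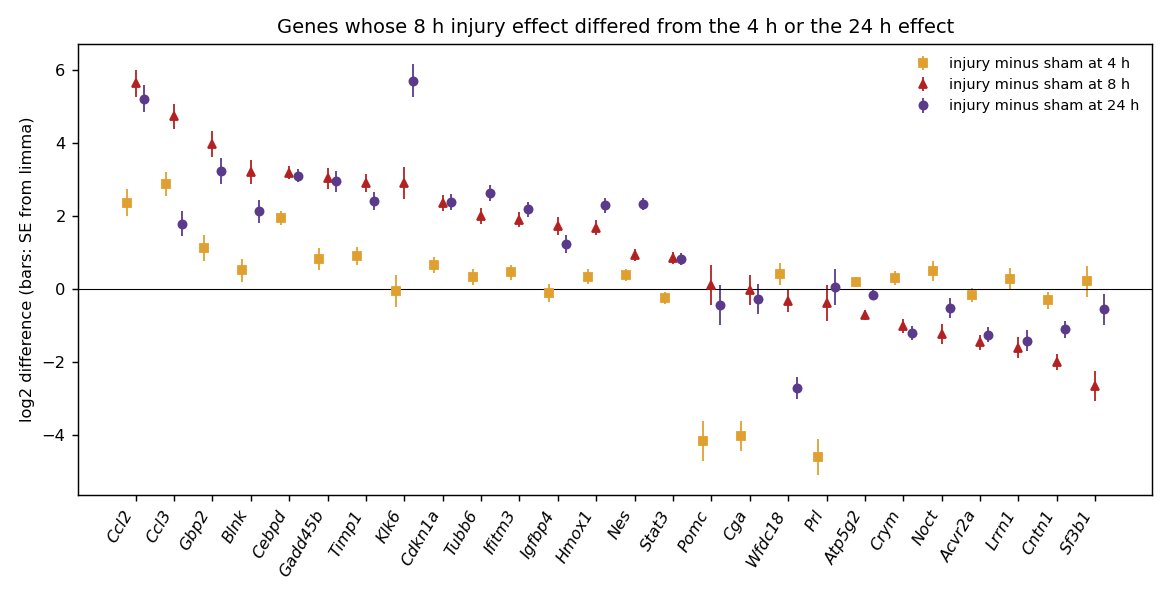
Injury effect (y axis, log2 difference from time-matched sham, bars are standard errors from limma) at 4 h (yellow squares), 8 h (red triangles) and 24 h (purple circles) for the 26 named genes whose 8 h effect differed from the 4 h or the 24 h effect. The effects of Ccl2, Gbp2 and Timp1 are larger at 8 than at 4 h, where their 8 h sham means lie below the 4 h ones, while the low 4 h values of Pomc, Prl and Cga come with 8 h values near 0.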

How the data were processed

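Values were the authors' deposited intensities, linear signals per probe set that had been scaled so that the 2%-trimmed mean of each array was 800.3 to 800.5; the software was not given in the sources used here. Signals below the pooled 10th percentile over the 22 mouse arrays (24.06) were set to it and log2 was taken. The 66 control probe sets, 396 with several gene symbols and 1193 with none were left out, symbols being those of the platform annotation. The filter asked for a signal above 193.5, the 40th percentile of the pooled signals, in at least 3 arrays. It passed 8477 probe sets other than controls, of which 7630 had a single gene symbol. Each gene was read from its probe set with the highest mean, which left 6355 genes. The limit on precision is the number of arrays.

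Group means of all 9 mouse groups were fitted with limma 3.58.1 in R 4.3.3 (13 residual degrees of freedom, moderated variances with a mean trend), with Benjamini-Hochberg adjustment over all genes and a threshold of 0.05. Differences are injury minus sham in log2 units ± SE; changes of genes at the floor are understated. Samples were grouped by their labels, and 4 contrasts were tested: injury against sham at 8 h, its difference from the same contrast at 4 and at 24 h, and sham at 8 h against the other uninjured groups. The fit was tested on simulated data. Figures were drawn with Python 3.11.15 and matplotlib 3.10.9.

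The members and the 37 gene lists were chosen with earlier results of these data known. Genes were named as the 12 largest rises and falls of at least 2-fold without overlap of the arrays, up to 5 called members of each list by adjusted p, any other list member as a value, and up to 6 per direction from the other contrasts; genes outside this rule are said to be chosen after their values were seen. Alternatives were quantile normalization, leaving out the filter, raising the floor to the 25th percentile, averaging the probe sets of a gene, blocking on the letter in the titles, other sets of arrays or controls, no mean trend, and each array left out in turn. Sequences of the genes were not used here.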

Additional observations from a re-analysis of the deposited data

Results flagged for a closer look

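The 26 genes below had an injury effect at 8 h that differed, by a test of the difference itself in limma, from the effect at 4 or at 24 h (adjusted p below 0.05, log2 difference of the effects given). No explanation was tested for any of them.

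The effect was higher at 8 than at 4 h for Pomc (4.27), Prl (4.21), Cga (4), Ccl2 (3.26), Klk6 (2.96), Gbp2 (2.85), Blnk (2.69), Gadd45b (2.21), Timp1 (2.01), Igfbp4 (1.83), Cdkn1a (1.69), Tubb6 (1.67), Ifitm3 (1.45), Hmox1 (1.35), Cebpd (1.24) and Stat3 (1.09). Pomc, Prl and Cga encode pituitary hormone precursors or subunits and had 8 h effects of 0.11, -0.38 and -0.03, with adjusted p at or above 0.05. The sham means of 12 of these 16 differed more between the times than the injury means, and the 8 h sham mean was the lower in all 16, a pattern that the selection of the genes favoured. Of the genes not detailed above, Igfbp4, Blnk and Tubb6 had injury means 0.89, 1.23 and 0.46 higher at 8 than at 4 h and sham means at -0.94, -1.46 and -1.21, and Gadd45b had -0.60 and -2.81. For Pomc, Prl and Cga both sham arrays at 4 h stood apart, with Prl at 8269 and 8861 units against 193 to 417 in the 8 h sham arrays. Klk6, a secreted protease gene of oligodendrocytes, was at 131, 132 and 342 after injury and 11.6 and 7.81 in sham at 8 h, a rise of at least 2.91 (adjusted p = 0.00025). Under the 14 settings the differences of Klk6 and Ifitm3 were called under 6 and 5, with adjusted p up to 0.292 and 0.124, those of Pomc, Gadd45b, Igfbp4, Blnk and Tubb6 under 12, 11, 10, 13 and 12.

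The effect was lower at 8 than at 4 h for Sf3b1 (-2.87), Lrrn1 (-1.89), Noct (-1.73), Cntn1 (-1.69), Crym (-1.33), Acvr2a (-1.29) and Atp5g2 (-0.892). Of 14 settings tried, these differences were called under 6 for Sf3b1, 5 for Lrrn1, 4 for Noct, 12 for Cntn1, 8 for Crym, 5 for Acvr2a and 3 for Atp5g2, with adjusted p up to 0.158, 0.266, 0.635, 0.119, 0.121, 0.261 and 0.346. The sham means of Lrrn1, Crym and Acvr2a differed more between the times than their injury means. Noct, the clock-regulated nocturnin gene, was at 2689.5, 1725 and 3484 after injury and 8009 and 4426 in sham on the chosen probe set (-1.24 ± 0.27, adjusted p = 0.00627), while another of its probe sets rose by 0.94 (adjusted p = 0.00196 over all probe sets), the only gene with probe sets called in opposite directions. Lrrn1, a neuronal transmembrane protein gene, fell from 952 and 1072 to 335, 308 and 359.5 at 8 h (-1.60 ± 0.29, adjusted p = 0.00136), and Crym, which binds thyroid hormone, from 767 and 1098 to 478, 459.8 and 431 (-1.01 ± 0.19, adjusted p = 0.00207).

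Against 24 h, the 8 h effect was higher for Ccl3 (2.94) and Wfdc18 (2.37) and lower for Nes (-1.4). The difference of Wfdc18 lay at 24 h, where it was at -2.70 ± 0.29, and not at 8 h (-0.33 ± 0.29).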

How the results depend on the processing

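The 520 calls became 309 with only the 5 compared arrays in the fit, 781 with all 10 uninjured arrays as control, 191 with the sham arrays averaged (72.8% of them higher, against 60%) and 194 without sham 1b (75.8% higher); over the arrays left out in turn the count ran from 194 to 453. With the other 8 uninjured arrays as control, 689 genes were called, 382 of them shared with the 520. The 39 genes that differed between 8 and 4 h ran from 8 to 39 with single arrays left out. The 3 that differed between 8 and 24 h became 1 with the title letter as a block and 0 with no filter on low values (limma, where 589 genes were at an unadjusted p below 0.05, against 471), and ran from 0 to 17 with single arrays left out. The 2 sham differences became 1 with a floor at the 25th percentile and ran from 1 to 5. Of 175 called genes followed through 15 settings, 76 kept their call in all of them, 99 lost it in at least 1, and 1 changed direction: Noct was at 0.097 with the mean of its probe sets (adjusted p = 0.875). An alternative chosen after seeing the data, each probe set fitted on its own, gave 565 genes with a called probe set, 509 of them among the 520, and 56 genes had a call only on a probe set other than the one used. No paired analysis was possible because both sham arrays carry the number 1 and differ only in letters, while the injury arrays are numbered 1 to 3. All 3 injury arrays and sham 1b have the title letter b and sham 1c has c, so the comparison within letter b is the one without sham 1c, with 380 calls; the title letter as a block gave 400 calls at 8 h and could not be fitted for the differences from 4 h or from the other uninjured groups.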

Other observations

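The genes here lie outside the lists or the naming rule and were chosen after their values were seen; each was tested in the fit over all genes, and no theme is claimed for them. Fabp7, a fatty acid binding protein of radial glia and astrocytes, read 771, 984 and 1142 after injury and 2900.3 and 2595 in sham (-1.52 ± 0.24, adjusted p = 0.00042). Id4, an inhibitor of helix-loop-helix factors, went from 2174 and 1856 to 998, 1039.9 and 1049.7 (-0.97 ± 0.17, adjusted p = 0.00127), and Dcx, the microtubule protein of immature neurons, from 863 and 1016 to 485, 344 and 435 (-1.17 ± 0.21, adjusted p = 0.00158). All 3 lay below all 10 uninjured arrays and kept their calls under the 15 settings. Nr2f1 and Nr2f2, the COUP nuclear receptors, fell by 1.34 and 1.42 on the log2 scale; sham 1b, at 5775 units of Nr2f1, was above the other uninjured arrays (2039 to 3438), and without it Nr2f1 had adjusted p = 0.0818. Sox2, a stem cell factor, was at 2475, 1578 and 2356 against 4773 and 3096 (-0.88 ± 0.23, adjusted p = 0.0245) and had adjusted p = 0.116 without injury replicate 2 and 0.391 without sham 1b. Chl1, a neural adhesion molecule related to L1, fell from 1479 and 1200.3 to 323, 290 and 491 (-1.89 ± 0.27, adjusted p = 0.000118) in every setting.

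Ndn, or necdin, fell from 6822 and 7982 to 4663, 4580.5 and 4347 (-0.70 ± 0.13, adjusted p = 0.00186), below all other uninjured arrays and in every setting. Nnat, neuronatin, was at 1420.2, 1144 and 1415 against 2930.2 and 3726 (-1.32 ± 0.33, adjusted p = 0.0158) and had adjusted p = 0.0586 without injury replicate 2, 0.0657 without sham 1b and 0.126 without sham 1c. Peg3 was at 4368, 5016 and 4832 against 8091 and 6421 (-0.61 ± 0.16, adjusted p = 0.0255), with injury arrays inside the range of the other uninjured arrays and a call kept under 8 of 15 settings.

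Strong rises outside the lists included Blnk, a B-cell and myeloid adaptor, from 152 and 212 to 1533, 2009.6 and 1478 (3.21 ± 0.32, adjusted p = 2.19e-06). A2m, a plasma protease inhibitor, rose from 120.2 and 118 to 546, 554 and 598 (2.25 ± 0.27, adjusted p = 2.39e-05). The tubulin gene Tubb6 rose from 423 and 425 to 1541, 1822 and 1759 (2.01 ± 0.22, adjusted p = 5.62e-06), and Lmna, a nuclear lamin gene, from 1484 and 1874 to 5802, 5658 and 4376 (1.65 ± 0.17, adjusted p = 2.72e-06). Cyp1b1, a cytochrome P450, rose from 71.3 and 27.4 to 221, 369.8 and 367 (2.81 ± 0.40, adjusted p = 0.000135). These 5 were above all 10 uninjured arrays and kept their calls in every setting.

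Of 9 genes expressed in striatal neurons, chosen after their values were seen, Tac1, Penk, Drd2, Pde1b and Ptpn5 rose and 4 were not called on their chosen probe sets, and no shift of the group is claimed. Drd2, the D2 dopamine receptor, read 945, 872 and 670 after injury and 257 and 214 in the 8 h sham arrays, and naive replicate 2, at 665 units, was the highest of the other uninjured arrays. Pde1b read 6892, 8104 and 6246 after injury and 2924 and 3787 in sham, with naive replicate 2 at 7292 and naive replicate 1 at 5484, the highest of the remaining uninjured arrays. For Penk, naive replicates 1 and 2 had 11640 and 15520 units, where the 6 other sham arrays had 7266 to 10000. Ptpn5, a striatum-enriched phosphatase, was at 3546, 3245 and 2892 against 2162 and 2242 (0.55 ± 0.13, adjusted p = 0.0108) and had adjusted p = 0.111 without sham 1b; its highest other uninjured array was a 72 h sham array, at 2857 units. Rasgrp2 (1.12 ± 0.36, adjusted p = 0.0623), Pdyn (-0.10 ± 0.28, adjusted p = 0.892), Meis2 (0.23 ± 0.21, adjusted p = 0.597) and Foxp1 (0.43 ± 0.25, adjusted p = 0.338), also expressed there, had adjusted p at or above 0.05. A second probe set of Foxp1 was called as a rise, at 1.53 ± 0.26 (adjusted p = 0.000907 over all probe sets in limma). How much striatal tissue each disk held was not tested.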
